A study of Mus musculus with 15 samples.

Results

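The genes described here are 33 genes that mark monocytes and the macrophages resident in bone marrow, read by gene symbol from a table of 38315 genes in mouse bone marrow. The table covers 15 bulk libraries of total RNA. Of these, 7 came from leukaemic marrow of NUP98NSD1/FLT3ITD mice, called AML marrow here, a genotype that pairs a fusion of the nucleoporin NUP98 and the histone methyltransferase NSD1 with FLT3ITD, an internal tandem duplication in a receptor tyrosine kinase of blood progenitors. Normal marrow was wild type and came in 2 forms, with 4 libraries of whole marrow and 4 libraries of lineage-negative marrow, from which cells that carry surface markers of mature blood lineages have been removed. No treatment is named for any group. Age, sex, strain, the promoters that drive the alleles, the lineage antibodies and whether each library is a separate animal are not given in the sources used here, so p-values measure the spread between these libraries, which may be technical.

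Monocytes are made in the marrow from granulocyte and monocyte progenitors. Classical monocytes carry Ly6C and leave through the blood to inflamed tissue, while non-classical monocytes lose Ly6C and patrol vessel walls. Resident marrow macrophages sit in erythroblastic islands, where they engulf the nuclei expelled by maturing red cells, take up dying cells through receptors such as MERTK and AXL, break down haem and export the iron.

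The genes fall into 6 groups by role. There are 11 classical monocyte and myeloid genes (Ly6c2, F13a1, Vcan, Cd14, Fn1, Emb, Plbd1, Wfdc17, Pid1, Ly86, Thbs1), 3 non-classical monocyte genes (Ace, Treml4, Adgre4), 5 phagocyte lysozyme and lysosome genes (Lyz1, Lyz2, Mpeg1, Cd68, Pld4), 6 macrophage identity genes (Vsig4, Cd163, Spic, Timd4, Adgre1, Mrc1), 6 scavenger and apoptotic cell receptors (Marco, Msr1, Cd36, Axl, Mertk, Trem2) and 2 genes of haem and iron recycling (Hmox1, Slc40a1). All 33 were in the table. Marco and Vsig4 did not reach 10 normalized counts in 4 libraries and were not tested, which left 31 tested genes among the 18941 kept.

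Values are normalized counts, in which the authors divided the reads of each gene by a DESeq2 size factor of the library. A gene is called higher or lower at an adjusted p under 0.05 (limma, Benjamini-Hochberg over the 18941 genes) with a log2 difference of at least 1 in size. The estimated depth was 20.3 to 35.1 M reads (M, mega) in AML, 11.4 to 17.2 M in whole marrow and 20.3 to 28.1 M in the lineage-negative group. The deposited scaling placed whole marrow low: the median log2 difference of all genes was 0.67 for AML minus whole marrow and 0.59 for lineage-negative minus whole marrow, but 0.02 for AML minus lineage-negative marrow. Rescaling by trimmed mean of M values (TMM) brought these medians to 0.01, −0.09 and 0.05, so counts of genes called against whole marrow are given under both scalings. Whole marrow also had more reads on 1611 olfactory and vomeronasal receptor genes, a set with no known role in marrow, at a mean of 6.69 to 12.6 normalized counts per gene, where AML libraries held 0.437 to 3.55 and the lineage-negative group 0.351 to 0.475. In bulk samples, fewer cells of a type and less RNA per cell cannot be told apart.

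A pair of the genes have close copies, and their sequences are shown because reads from the shared stretches can be counted to either copy. Ly6c2 and Ly6c1 encode small GPI-anchored surface proteins, and Ly6C antibodies bind the products of both. Their coding sequences of 396 bases each differ at 9 bases (97.7% identical), and 14.4% of the stretches of 50 bases in Ly6c2 transcripts also occur in another gene, 379 of them in Ly6c1. The opening 90 bases of each coding sequence follow (GENCODE M21, GRCm38), with the 6 differing bases in capitals.
Ly6c2: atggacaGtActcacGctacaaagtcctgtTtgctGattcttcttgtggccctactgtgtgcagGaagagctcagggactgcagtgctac
Ly6c1: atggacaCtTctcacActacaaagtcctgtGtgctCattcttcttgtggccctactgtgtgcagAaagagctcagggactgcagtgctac

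Lyz1 and Lyz2 encode lysozyme, which cleaves bacterial cell walls. Lyz2 is the myeloid form and Lyz1 is best known from Paneth cells of the gut. Their coding sequences of 447 bases each differ at 22 bases (95.1% identical), and 195 stretches of 50 bases are shared, which is 16.1% of those in Lyz1 and 15.4% of those in Lyz2. Bases 43 to 132 of the coding sequences, where 13 bases differ, are shown with those bases in capitals.
Lyz2: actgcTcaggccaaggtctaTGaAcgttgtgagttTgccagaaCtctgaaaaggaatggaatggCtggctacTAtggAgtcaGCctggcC
Lyz1: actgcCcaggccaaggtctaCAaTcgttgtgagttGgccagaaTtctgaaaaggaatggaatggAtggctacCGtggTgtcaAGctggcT

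Among the classical monocyte genes, Ly6c2 (ENSMUSG00000022584, chromosome 15) stood at 33261, 33971, 10376, 23364, 29138, 38422 and 24072 normalized counts in AML replicates 1 to 7. In whole marrow replicates 1 to 4 it stood at 6163, 14009.7, 11028 and 8905, and in lineage-negative replicates 1 to 4 at 9490.5, 7722, 5044 and 7050.1. AML replicate 3 was the lowest AML library and lay inside the whole marrow range, while the other AML libraries lay above every normal library. The log2 difference was 1.42 (SE 0.31, limma adjusted p = 0.000708) from whole marrow and 1.85 (SE 0.31, adjusted p = 7.34e-05) from lineage-negative marrow. After TMM scaling the difference from whole marrow was 0.74 and Ly6c2 was not called. Summing Ly6c1 and Ly6c2 gave 1.42 from whole marrow and 1.84 from lineage-negative marrow.

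F13a1 (ENSMUSG00000039109, chromosome 13) encodes the catalytic chain of coagulation factor XIII, which cross-links fibrin. It stood at 41608, 31557, 10768, 18260.4, 31722, 29128 and 27916 in AML replicates 1 to 7, at 4414, 9161, 9048 and 7187 in whole marrow and at 12279, 11429.6, 8202 and 9976 in lineage-negative marrow. Every AML library was above every whole marrow library, and AML replicate 3 alone fell within the lineage-negative range. AML was 3.54-fold above whole marrow (log2 1.82, SE 0.31, limma adjusted p = 7.00e-05), and the call held after TMM scaling at a log2 difference of 1.14. From lineage-negative marrow the log2 difference was 1.29 (SE 0.31, adjusted p = 0.00192).

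Vcan (ENSMUSG00000021614, chromosome 13) encodes versican, a large chondroitin sulphate proteoglycan that classical monocytes secrete. It varied more among AML libraries than the other 2 monocyte genes, at 8923, 3496, 809, 906, 664, 5969 and 1903. Whole marrow held 228, 560.1, 881 and 427, and lineage-negative marrow 50.8, 6.17, 30.8 and 45.7. AML replicates 3 and 5 lay under the highest whole marrow library, and every AML library was above every lineage-negative one. The log2 difference was 2.15 from whole marrow (SE 0.65, limma adjusted p = 0.00763) and 6.26 from lineage-negative marrow (SE 0.65, adjusted p = 2.02e-07). The call against whole marrow was lost without whole marrow replicate 1 (log2 1.81, adjusted p = 0.0539) and after TMM scaling (log2 1.48, adjusted p = 0.0974).

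The resident macrophage genes set against these showed another pattern. Cd163 (ENSMUSG00000008845, chromosome 6) encodes the receptor that takes up haemoglobin bound to haptoglobin. It stood at 207, 423, 480.4, 270.4, 399, 45.7 and 414 in AML, at 101, 205, 214 and 202 in whole marrow and at 205, 181, 159.5 and 230.4 in lineage-negative marrow. AML replicate 6 was the lowest of all 15 libraries, and the other AML libraries ranged from within to above the normal values. The log2 difference of 0.60 from whole marrow (SE 0.46, limma adjusted p = 0.256) did not pass, nor did 0.45 from lineage-negative marrow (SE 0.46, adjusted p = 0.447). Without AML replicate 6 the difference from whole marrow was 1.02 and was called (adjusted p = 0.003), and after TMM scaling of all libraries it was −0.07.

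Spic (ENSMUSG00000004359, chromosome 10) encodes the transcription factor SPI-C, which is induced by haem and needed for iron-recycling macrophages of spleen and marrow. It stood at 29.3, 36.0, 88.2, 37.2, 34.0, 39.5 and 32.4 in AML, at 38.6, 117, 122 and 75.04 in whole marrow and at 5.45, 7.93, 8.81 and 15.7 in lineage-negative marrow. Among AML libraries 5 lay under every whole marrow library, and all 7 lay above every lineage-negative library. The log2 difference was −1.003 from whole marrow (SE 0.38, limma adjusted p = 0.0277) and 2.04 from lineage-negative marrow (SE 0.38, adjusted p = 0.000197). The lower call sits at the size limit: it was lost without any 1 of AML replicates 1, 2, 4, 5 and 7 or whole marrow replicates 2 and 3 (log2 −0.99 to −0.80), and held at −1.67 after TMM scaling. When the receptor-gene background was subtracted by gene length, the difference was −0.80 and was not called (adjusted p = 0.11).

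Timd4 (ENSMUSG00000055546, chromosome 11) encodes TIM4, a phosphatidylserine receptor of long-lived resident macrophages. It stood at 12.7, 7.87, 87.0, 5.91, 34.0, 19.7 and 31.3 in AML, at 12.6, 30.8, 16.7 and 17.7 in whole marrow and at 0.908, 1.76, 0 and 1.31 in lineage-negative marrow. AML replicate 3 was the highest library of all, and AML libraries fell on both sides of whole marrow. Each lineage-negative value was at or under the floor of 3 reads. The log2 difference from whole marrow was 0.10 (SE 0.57, limma adjusted p = 0.886). The difference from lineage-negative marrow was called at 3.48 (adjusted p = 5.17e-05), and its size depended on the pseudocount, at 4.78 with 0.1 and 2.13 with 5.

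Vsig4 (ENSMUSG00000044206, X chromosome) encodes the complement receptor CRIg, a marker of liver and other tissue macrophages. It was close to the limit of detection, at 3.82, 6.75, 9.80, 8.45, 0, 3.70 and 1.08 in AML, 3.59, 2.68, 6.26 and 1.36 in whole marrow and 0, 0.881, 0.881 and 1.31 in lineage-negative marrow. The receptor-gene background at the length of Vsig4 was 2.82 to 5.30 in whole marrow, and 3 of 4 whole marrow libraries were at or under it. The highest value was again in AML replicate 3, and no fold is given.

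**Figure D1:**
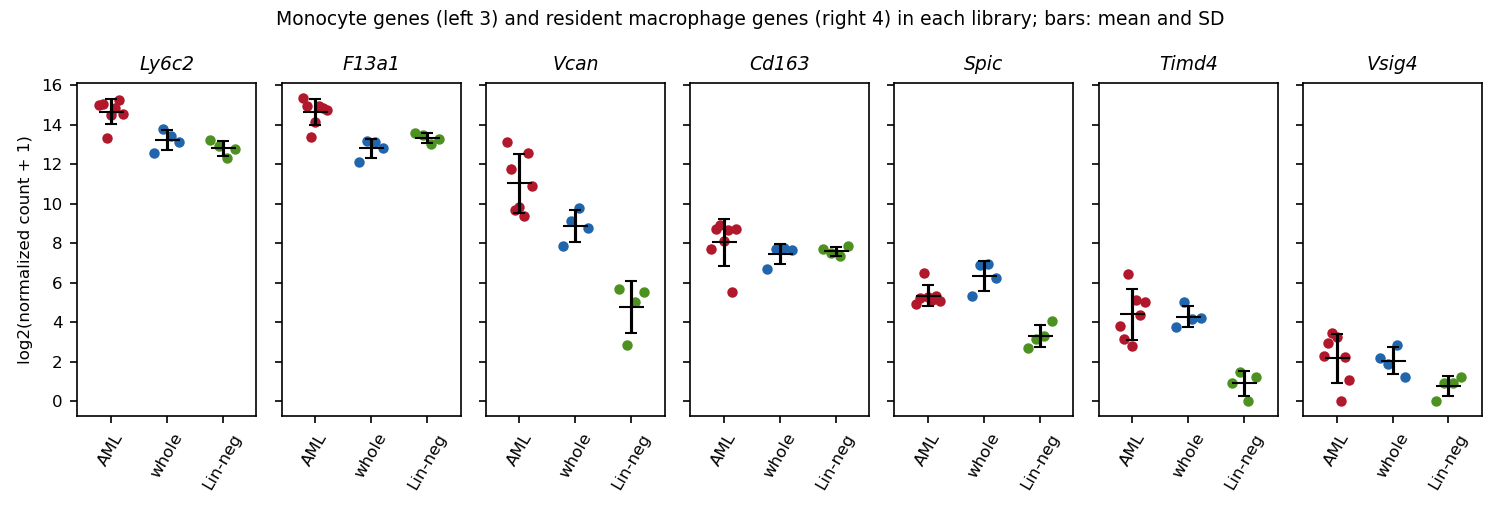
Values of the 3 monocyte genes and the 4 resident macrophage genes in each library, as log2(normalized count + 1), for AML (7 libraries), whole marrow (4) and lineage-negative marrow (4). Points are libraries and bars are the mean and SD. AML points sit above most normal points for Ly6c2, F13a1 and Vcan, overlap whole marrow for Cd163, Timd4 and Vsig4, and sit mostly below whole marrow for Spic. Gene length was not taken into account, so heights are compared within a panel only.

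The contrast of both sets was taken in each library as the mean log2 value of Ly6c2, F13a1 and Vcan minus the mean log2 value of Vsig4, Cd163, Spic and Timd4, a difference in which a scale factor of the library nearly cancels. It was 9.83, 8.91, 5.81, 7.99, 8.33, 9.83 and 8.45 in AML replicates 1 to 7. Whole marrow gave 6.36, 6.66, 6.69 and 6.71, and lineage-negative marrow gave 8.004, 6.49, 7.22 and 6.96. AML replicate 3 had the lowest value of all 15 libraries, and the other 6 AML libraries were above every whole marrow library. The means were 8.45 ± 1.37 (SD, n = 7), 6.61 ± 0.17 (n = 4) and 7.17 ± 0.64 (n = 4). The AML mean was thus 1.84 above whole marrow and 2.28 above it without AML replicate 3. These genes were chosen with results of these data known, so the contrast has no test.

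On the deposited scale AML differed from whole marrow on the monocyte side of the contrast. The monocyte mean was 13.43 ± 0.83 in AML against 11.64 ± 0.58 in whole marrow, while the macrophage mean was 4.99 ± 0.63 against 5.03 ± 0.45. After TMM scaling the AML minus whole marrow difference was 1.12 on the monocyte side and −0.67 on the macrophage side, so how it divides between the sides depends on the scaling. Lineage-negative marrow was lower on both sides, at 10.30 ± 0.48 and 3.14 ± 0.35. Quantile scaling reduced the AML minus whole marrow contrast to 0.97, and subtraction of the receptor-gene background reduced it to 1.32. The wider sets of 11 classical and 6 macrophage identity genes gave 1.17. The AML minus lineage-negative contrast of 1.28 rested on Vcan and was −0.28 without that gene.

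**Figure D2:**
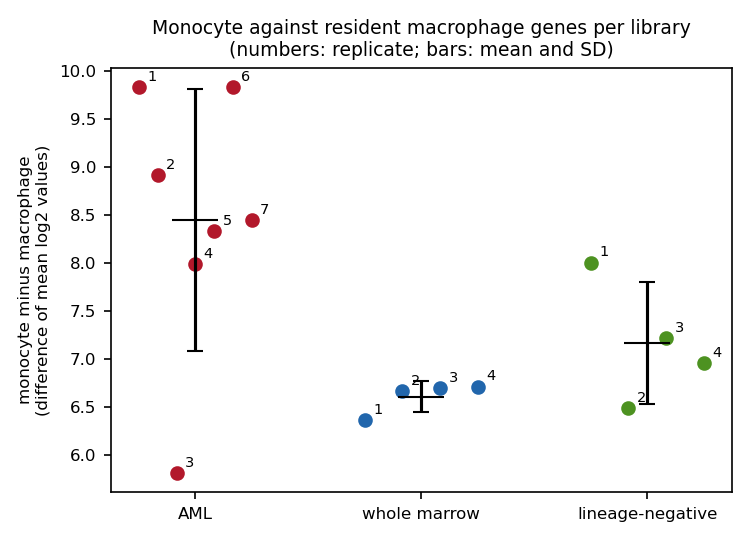
Mean log2 value of Ly6c2, F13a1 and Vcan minus that of Vsig4, Cd163, Spic and Timd4 in each library; the y axis is in log2 units, numbers are replicates, and bars are the mean and SD. Whole marrow libraries lie between 6.36 and 6.71, AML replicate 3 lies below them at 5.81, and the other AML libraries reach from 7.99 to 9.83.

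Over all tested genes of the set, 18 of 31 were called higher in AML than in whole marrow (58.1%, against 27.3% of all genes), 3 were called lower (9.68%, against 11.3%) and 10 were not called. Their median log2 difference was 1.37, beside 0.67 for all genes. After TMM scaling 7 were called higher (22.6%, against 4.95% of all genes) and 4 lower (12.9%, against 15.8%), with a median of 0.70 beside 0.01. The 7 were Mpeg1, F13a1, Fn1, Wfdc17, Pid1, Pld4 and Ly86, and the 4 were Cd36, Thbs1, Spic and Slc40a1. On the deposited scale every AML library was above every whole marrow library in 13 genes, where 35.8% of all genes had this pattern. In none was every AML library below every whole marrow library (7.88% of all genes).

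Against lineage-negative marrow, 28 of 31 were called higher in AML (90.3%, against 17.7% of all genes) and none lower (12.5% of all genes). At an unadjusted p under 0.05 limma gave 0 lower, and voom called 0 lower at the limits used for calls. TMM scaling left the counts of calls as they were, beside 17.9% and 12.1% of all genes. Emb, Cd163 and Slc40a1 were not called. The median log2 difference was 3.50, beside 0.02 for all genes. In 26 genes every AML library was above every lineage-negative library (17.0% of all genes). Lyz1, Timd4 and Mertk did not reach 10 normalized counts in any lineage-negative library. Ace, Treml4, Spic, Vcan and Msr1 reached it in only some of these libraries. All of these genes were tested through the other groups, so the counts of calls describe the genes and support nothing further.

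In 17 genes AML was called above both normal groups (7.20% of all genes), and in 7 after TMM scaling (2.94%). On the deposited scale all 7 AML libraries lay above all 8 normal libraries in 10 genes (8.56% of all genes): Fn1, Wfdc17, Pid1, Ly86, Lyz1, Mpeg1, Cd68, Pld4, Adgre1 and Trem2. That scale placed whole marrow low, and lack of overlap, here and for single genes below, was not examined after TMM scaling. The gap was small in some, with a lowest AML and highest whole marrow value of 63.6 and 61.6 for Lyz1, 193 and 161 for Trem2 and 1199.8 and 1024 for Adgre1.

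**Figure D3:**
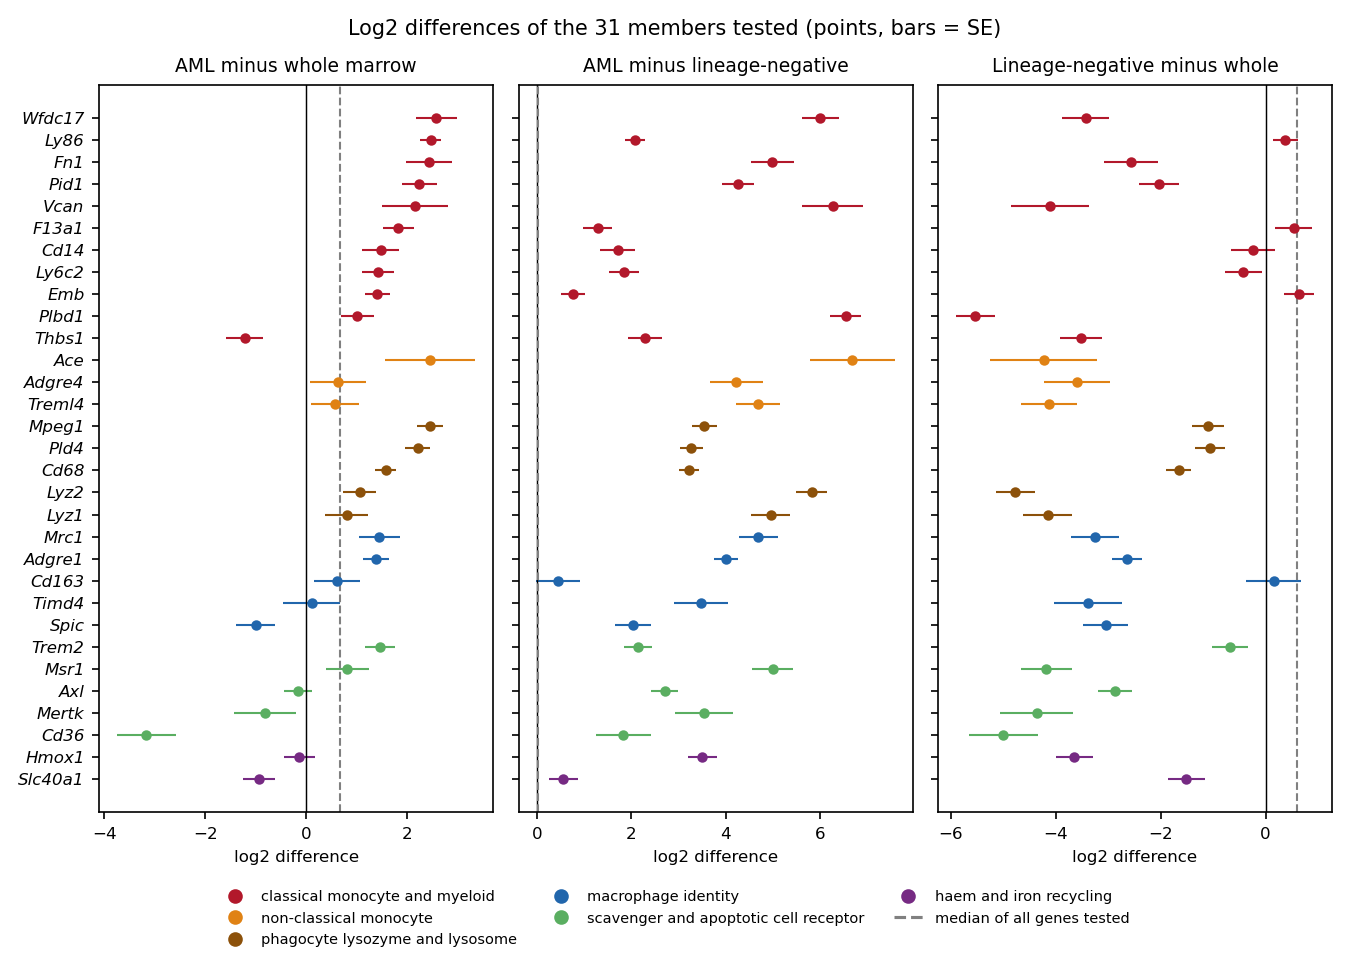
Log2 differences of the 31 tested genes for AML minus whole marrow, AML minus lineage-negative marrow and lineage-negative minus whole marrow, ordered by role. Points are limma estimates on the deposited scale, bars are standard errors, and dashed lines mark the median of all genes (0.67, 0.02 and 0.59). Classical monocyte and lysosome genes lie mostly right of the dashed line in the left panel, while Cd36, Thbs1, Spic and Slc40a1 lie left of zero.

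Of the 11 classical monocyte and myeloid genes, 10 were called higher in AML than in whole marrow (90.9%, against 27.3% of all genes) and Thbs1 was called lower. After TMM scaling 5 were higher (45.5%, against 4.95%) and Thbs1 lower. Fn1 encodes fibronectin, a matrix protein that monocytes also release. It had a lowest, median and highest AML value of 22358, 45266 and 78546, against 5962, 9677, 8004 and 9879 in whole marrow and 4677, 466.2, 762.4 and 2261 in lineage-negative marrow. The lowest AML library was above the highest normal library, and the log2 difference from whole marrow was 2.42 (SE 0.46, limma adjusted p = 0.00018) or 1.75 after TMM scaling.

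Wfdc17, which encodes a small secreted WAP-domain protein of activated macrophages, stood at a lowest, median and highest of 1436, 2579 and 3541 in AML. Whole marrow held 111, 583, 1026 and 381, and lineage-negative marrow 39.9, 38.8, 25.6 and 43.1. AML was above both normal groups without overlap, with a log2 difference of 2.57 from whole marrow (SE 0.40, limma adjusted p = 3.18e-05; 1.90 after TMM scaling). Against lineage-negative marrow the difference was 6.00 (SE 0.40, adjusted p = 5.81e-10).

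Ly86 encodes MD-1, the partner of the Toll-like receptor homologue RP105. Its AML values ran from 2312 over a median of 3340.1 to 5199.6, against 447, 779, 599 and 576 in whole marrow and 666, 932, 630.2 and 868 in lineage-negative marrow. It had the smallest standard error of the set, with a log2 difference of 2.46 from whole marrow (SE 0.21, limma adjusted p = 5.67e-08) and 2.09 from lineage-negative marrow (SE 0.21, adjusted p = 1.19e-07). Unlike most of the set it was not lower in lineage-negative than in whole marrow, at 774.2 ± 149 (SD, n = 4) against 600.1 ± 136 (n = 4), log2 0.37 (adjusted p = 0.172).

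Pid1, a gene for an adaptor protein with a phosphotyrosine-binding domain, held 579, 1992 and 2589.9 as its lowest, median and highest AML values. Whole marrow held 260.3, 417, 373 and 368, and lineage-negative marrow 129, 87.2, 42.3 and 109. AML replicate 6 was the lowest AML library but still above every normal library. The log2 difference from whole marrow was 2.24 (SE 0.34, limma adjusted p = 2.70e-05; 1.56 after TMM scaling).

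The remaining classical genes were called higher on the deposited scale only. Cd14, the co-receptor for lipopolysaccharide, was at 339 ± 132 (SD, n = 7) in AML, 125 ± 50.9 (n = 4) in whole marrow and 108 ± 66.8 (n = 4) in lineage-negative marrow. Emb, which encodes the adhesion protein embigin, was at 11856 ± 2909, 4470.3 ± 1242 and 6905 ± 1726 in the same groups, and was the classical gene not called against lineage-negative marrow (log2 0.77, limma adjusted p = 0.0172). Plbd1, a phospholipase B-like gene of granules and lysosomes, was at 9789 ± 3680.2, 4759.8 ± 1412 and 114 ± 69.8. Its log2 difference of 1.01 from whole marrow was no longer called without AML replicate 1, 3 or 7 or whole marrow replicate 1 (0.80 to 0.99), and was 0.33 after TMM scaling.

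Thbs1 encodes thrombospondin 1, a matrix glycoprotein made by monocytes and abundant in platelets. It was at 469.5, 1029 and 1647 as the lowest, median and highest in AML, against 1081, 2475, 2023 and 3871 in whole marrow and 127, 133, 284 and 251 in lineage-negative marrow. Here 4 AML libraries lay under every whole marrow library, and all 7 lay above every lineage-negative library. The log2 difference from whole marrow was −1.22 (SE 0.36, limma adjusted p = 0.00626) and −1.90 after TMM scaling, and it was −0.94 and not called without whole marrow replicate 4.

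The lysozyme and lysosome genes included the most abundant transcript of the set. Per kilobase of exons, Lyz2 had a mean of 160796 normalized counts in AML, 79191 in whole marrow and 2912 in lineage-negative marrow. Ly6c2 had 10042, 3659 and 2674 on the same scale, far below Lyz2 in AML and whole marrow and close to it in lineage-negative marrow. The log2 difference of Lyz2 from whole marrow was 1.06 (SE 0.33, limma adjusted p = 0.00892), which was not called without AML replicate 1 (0.94) or whole marrow replicate 1 (0.84) and was 0.38 after TMM scaling. Against lineage-negative marrow the difference was 5.82 (SE 0.33, adjusted p = 8.22e-11).

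Lyz1 was counted at 63.6 to 169 in AML (median 82.0), at 37.7, 61.6, 53.2 and 60.05 in whole marrow and at 5.45, 3.53, 1.76 and 0 in lineage-negative marrow. The AML libraries lay above all normal libraries, yet the log2 difference from whole marrow of 0.80 did not pass (SE 0.42, limma adjusted p = 0.103). The ratio of Lyz2 to Lyz1 was 1155 to 5253 in AML and 1571 to 2624 in whole marrow. Of the stretches of 50 bases in Lyz1, 16.1% are shared with Lyz2, and gene totals do not show how many reads of Lyz2 were counted to Lyz1. The sum of both genes followed Lyz2 (log2 1.06 from whole marrow).

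Mpeg1 encodes perforin-2, a pore-forming protein of phagosomes. It stood at 26492, 43419.8 and 60233 as the lowest, median and highest in AML, against 4769, 10557, 8024 and 8604 in whole marrow and 5039, 3513, 2376 and 3966 in lineage-negative marrow. All AML libraries exceeded all normal ones, by 5.45-fold over whole marrow (log2 2.45, SE 0.27, limma adjusted p = 9.37e-07; 1.77 after TMM scaling) and 11.7-fold over lineage-negative marrow.

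Pld4, an endolysosomal exonuclease gene, stood at 3886, 6468 and 8886 as the lowest, median and highest in AML. Whole marrow held 835, 1959, 1526 and 1609, and lineage-negative marrow 935, 659, 485 and 709. The groups did not overlap with AML, and the log2 difference was 2.21 from whole marrow (SE 0.25, limma adjusted p = 1.27e-06; 1.53 after TMM scaling) and 3.27 from lineage-negative marrow.

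Cd68, a glycoprotein of phagocyte lysosomes, ran from 1387 over a median of 2265 to 2446 in AML, against 429, 909.8, 741 and 764 in whole marrow and 197, 246, 198 and 232 in lineage-negative marrow. It too was higher in every AML library, with a log2 difference of 1.57 from whole marrow (SE 0.21, limma adjusted p = 7.76e-06). After TMM scaling this was 0.90, under the size needed for a call.

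The non-classical monocyte genes were highest in AML replicate 3. Ace, which encodes angiotensin-converting enzyme, was at 366, 985, 4939.9, 738, 645, 38.3 and 1405 in AML replicates 1 to 7, against 64.6, 178, 95.0 and 173 in whole marrow and 9.08, 1.76, 0.881 and 29.4 in lineage-negative marrow. AML replicate 3 was the highest library and AML replicate 6 fell below every whole marrow library. Ace was called higher than in whole marrow (log2 2.45, SE 0.90, limma adjusted p = 0.023), but not without whole marrow replicate 1 (adjusted p = 0.0981) or 3 (adjusted p = 0.0532), nor after TMM scaling (log2 1.78, adjusted p = 0.148). Treml4, a receptor of non-classical monocytes and some dendritic cells, had a log2 difference of 0.57 (adjusted p = 0.299) and Adgre4, an adhesion receptor of the EGF-TM7 family, one of 0.63 (adjusted p = 0.335). After TMM scaling both were near zero, at −0.11 and −0.05. All 3 were called higher than in lineage-negative marrow (17.7% of all genes were), with log2 differences of 6.68, 4.69 and 4.22. In that group Ace was at or under the floor of 3 reads in 2 of 4 libraries, so the size of its difference rests partly on values of a few reads.

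Among macrophage identity genes, the pan-macrophage marker Adgre1, which encodes F4/80, stood at 1199.8, 2085 and 2542 as the lowest, median and highest in AML. Whole marrow held 403, 1024, 871 and 911, and lineage-negative marrow 141, 84.6, 115 and 158. All AML libraries were above all normal ones, with a log2 difference of 1.37 from whole marrow (SE 0.25, limma adjusted p = 0.000157; 0.70 and not called after TMM scaling) and 4.01 from lineage-negative marrow. Mrc1, the mannose receptor gene, was at 1526 ± 1163 (SD, n = 7) in AML, 499.6 ± 183 (n = 4) in whole marrow and 52.2 ± 24.02 (n = 4) in lineage-negative marrow, with a log2 difference of 1.45 from whole marrow (adjusted p = 0.00446; 0.77 and not called after TMM scaling). In this role 2 of 5 tested genes were thus called higher than in whole marrow on the deposited scale (40%, against 27.3% of all genes). Spic was called lower (20%, against 11.3%), and it alone was called after TMM scaling (20% lower, against 15.8%).

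The receptors for modified lipids and dying cells differed in direction. Trem2, a lipid receptor of macrophages and microglia, stood at 193, 354 and 467 as the lowest, median and highest in AML, against 74.5, 161, 112 and 139 in whole marrow and 133, 66.1, 50.2 and 62.7 in lineage-negative marrow. It was above every normal library, with a log2 difference of 1.46 from whole marrow (SE 0.30, limma adjusted p = 0.000383; 0.78 and not called after TMM scaling).

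Cd36 encodes a scavenger receptor for oxidized lipids that is also found on erythroid progenitors, platelets and some B cells. It stood at 90.3, 143, 1804, 119, 144, 99.95 and 210.3 in AML replicates 1 to 7, at 873, 1895, 1988 and 2557 in whole marrow and at 64.4, 29.1, 50.2 and 80.3 in lineage-negative marrow. AML replicate 3 lay inside the whole marrow range, and the other 6 AML libraries lay under every whole marrow library. The log2 difference was −3.17 from whole marrow (SE 0.58, limma adjusted p = 0.000143), −3.84 after TMM scaling and −3.71 without AML replicate 3. Against lineage-negative marrow the difference was 1.83 (adjusted p = 0.0144), which did not pass without lineage-negative replicate 2 (1.55, adjusted p = 0.0583).

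Erythroid and B cell markers, like Cd36, were lower in AML than in whole marrow. All 8 erythroid markers (haemoglobin genes, Alas2, Slc4a1, Klf1 and Epor) and all 7 B cell markers passed as lower in AML against whole marrow (11.3% of all genes did). Their summed levels were 397 to 31805 against 798785 to 1974830 normalized counts for erythroid markers, and 494 to 6416 against 3903 to 8450 for B cell markers. AML replicate 3 had the highest sum of AML for both lists and the highest Cd36. The next highest erythroid sum was in AML replicate 4 (16724), where Cd36 was at 119. The next highest B cell sum was in AML replicate 2 (2946), where Cd36 was at 143, the AML median. The part of these cells in the Cd36 difference was not tested.

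Mertk, a receptor kinase that clears apoptotic cells, was at 22.5 to 38.0 in 6 AML libraries and at 246 in AML replicate 6, against 28.7, 84.4, 96.0 and 106 in whole marrow and 2.72, 3.53, 0 and 7.83 in lineage-negative marrow. Its log2 difference from whole marrow was −0.82 (limma adjusted p = 0.249) with all libraries and −1.26 without AML replicate 6, where it was called lower (adjusted p = 0.0345). After TMM scaling of all libraries it was −1.49 (adjusted p = 0.0648). Axl, a related receptor kinase, was at 548 ± 129 (SD, n = 7) in AML and 648 ± 246 (n = 4) in whole marrow (log2 −0.16, adjusted p = 0.628, and −0.84 after TMM scaling, not called). Msr1, the class A scavenger receptor, had a log2 difference of 0.81 (adjusted p = 0.101), which was 1.04 and called without AML replicate 3 and 0.14 after TMM scaling. Axl, Mertk and Msr1 were each called higher than in lineage-negative marrow, at 2.70, 3.54 and 4.99.

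Marco, a scavenger receptor of marginal-zone and lung macrophages, was at 0, 0, 41.7, 2.53, 0, 22.2 and 2.16 in AML, 2.69, 0, 4.17 and 2.73 in whole marrow and 0, 0, 0 and 2.61 in lineage-negative marrow. AML replicates 3 and 6 were the only libraries clearly above the floor of 3 reads.

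The iron-recycling pair was not called higher in AML than in whole marrow. Hmox1, which encodes the haem-degrading enzyme haem oxygenase 1, was at 821 ± 239.6 (SD, n = 7) in AML and 916 ± 299 (n = 4) in whole marrow, against 77.0 ± 47.4 (n = 4) in lineage-negative marrow (log2 −0.14 from whole marrow, limma adjusted p = 0.713, and −0.82 after TMM scaling, not called). Slc40a1, which encodes the iron exporter ferroportin, was at 3715, 877, 1615, 1044, 1799, 2122 and 1665 in AML and at 1671, 4396, 3789 and 3753 in whole marrow, with 4 AML libraries under every whole marrow library. Lineage-negative marrow held 884, 1204, 1152 and 1300.0. The log2 difference from whole marrow of −0.94 (SE 0.31, adjusted p = 0.0135) fell short of the size for a call. It was −1.62 and called lower after TMM scaling, and was also called without AML replicate 1, AML replicate 6 or whole marrow replicate 1 (−1.26 to −1.003).

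**Figure D4:**
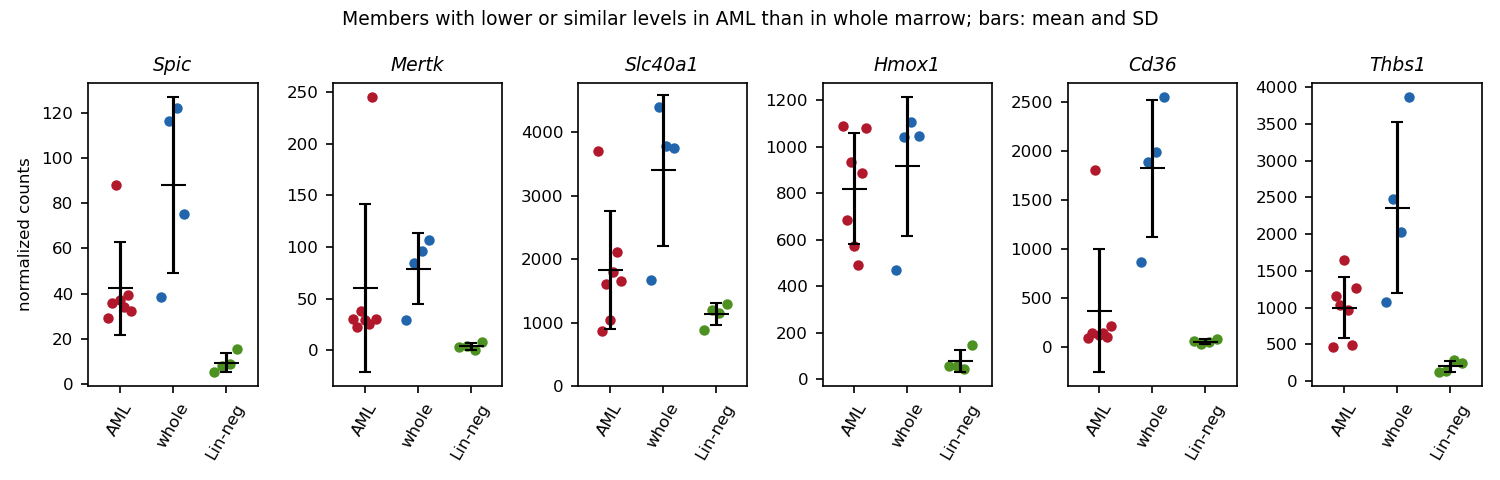
Normalized counts (linear axis) of Spic, Mertk, Slc40a1, Hmox1, Cd36 and Thbs1 in each library of AML, whole marrow (whole) and lineage-negative marrow (Lin-neg); points are libraries, bars are the mean and SD. In Cd36 and Spic AML replicate 3 (1804 and 88.2) and in Mertk AML replicate 6 (246) stand far above the other AML libraries.

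The AML libraries differed among themselves. AML replicate 3 was the highest AML library for 14 of the 33 genes and the lowest for 5. AML replicate 1 was the highest for 8 and the lowest for 6. AML replicate 6 was the lowest for 7, close to AML replicates 1, 4 and 5 at 6 each. Against the AML median, replicate 3 held 7.83 times the level of Treml4, 7.28 times Adgre4, 6.70 times Ace, 12.6 times Cd36, 4.41 times Timd4, 3.12 times Mrc1 and 2.45 times Spic. In the same library Ly6c2 was at 0.356, F13a1 at 0.370, Vcan at 0.425 and Emb at 0.510 of the median. Fn1 was at 0.494 of it, while the other classical genes ran from 0.841 (Wfdc17) to 1.80 (Plbd1, the highest AML library). Among the other macrophage genes and receptors, Msr1 was at 0.289 and Trem2 at 0.612 of the median. Axl (1.00), Cd163 (1.20), Adgre1 (1.22) and Mertk (1.26) were near it, while Vsig4 (2.57) and Marco (19.3), both of low counts, were above it. Replicate 3 was thus high for the non-classical monocyte genes and low for 5 of the 11 classical genes. Macrophage genes were divided, with some high, some near the median and Msr1 and Trem2 low.

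AML replicate 6 held 8.13 times the median level of Mertk but 0.0519 of the median of Ace, 0.114 of Cd163 and 0.291 of Pid1. Its dendritic cell markers summed to 2112 normalized counts, the lowest of AML, where replicate 3 had the highest sum at 14976. T and NK cell markers summed to 2494 in replicate 3 and 2285 in replicate 6, above the other AML libraries at 629.98 to 1692. The part of these cells in the values of both libraries was not tested.

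**Figure D5:**
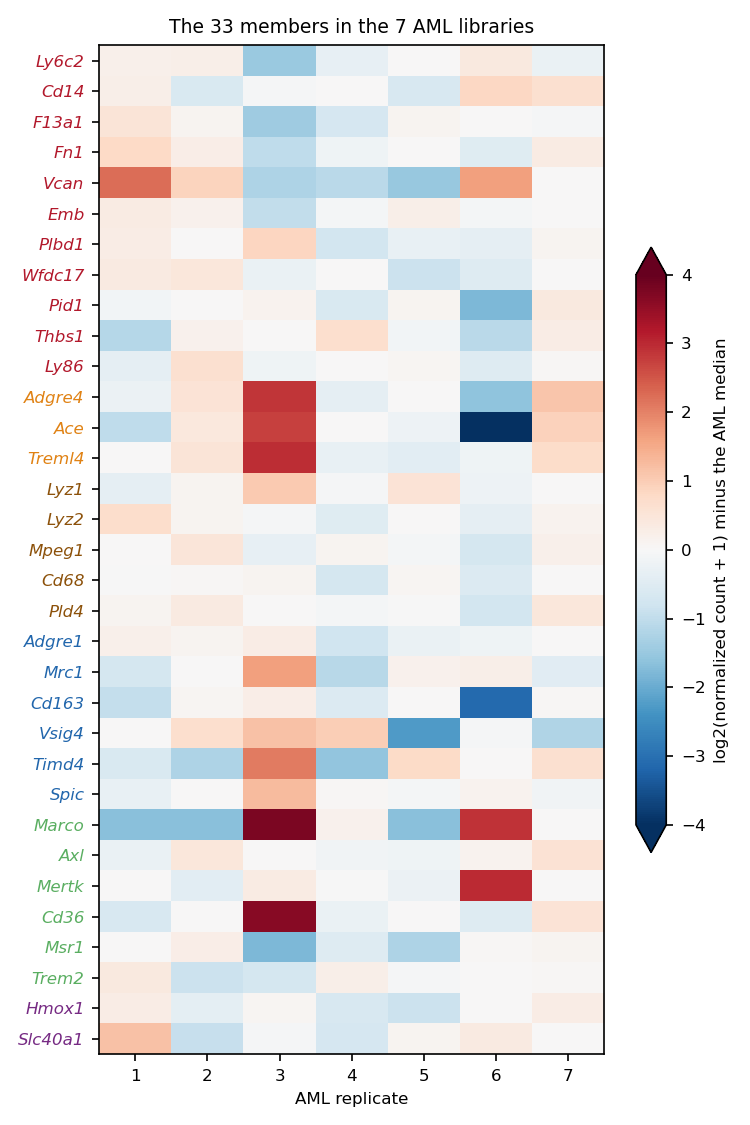
Each of the 33 genes in AML replicates 1 to 7, coloured by log2(normalized count + 1) minus the AML median of that gene (red above, blue below, colours end at ±4); gene names are coloured by role as in the plot of log2 differences. Replicate 3 is red for Adgre4, Ace, Treml4, Timd4, Marco and Cd36 and blue for Ly6c2 and F13a1, and replicate 6 is blue for Ace and Cd163 and red for Mertk and Marco.

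Between the normal groups, none of the 31 tested genes was called higher in lineage-negative than in whole marrow (33.1% of all genes were). At an unadjusted p under 0.05 limma gave 1, and voom called none higher at the limits used for calls. There were 24 called lower (77.4%, against 17.2% of all genes). Among them Lyz1, Timd4, Mertk, Ace, Treml4, Spic, Vcan and Msr1 were tested only through the groups in which they are high. The median log2 difference was −3.04, beside 0.59 for all genes. After TMM scaling 26 were called lower (83.9%, against 24.8%), with Ly6c2 and Trem2 added, and none higher (10.9% of all genes). Plbd1 (log2 −5.53), Cd36 (−4.99), Lyz2 (−4.77) and Mertk (−4.36, with lineage-negative values of a few reads) differed most. Mpeg1 (−1.10) and Pld4 (−1.06) were lower by little more than the size limit, and both were lost without whole marrow replicate 2 or lineage-negative replicate 3, and Pld4 also without whole marrow replicate 4.

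Of the genes not called on the deposited scale, F13a1 stood at 10472 ± 1787 (SD, n = 4) in lineage-negative against 7453 ± 2219 (n = 4) in whole marrow (log2 0.53, limma adjusted p = 0.19; −0.17 after TMM scaling). Emb (log2 0.64), Ly86 (0.37) and Cd163 (0.15) had differences above 0 that were under 0 after TMM scaling (−0.06, −0.33 and −0.55), and Ly6c2 (−0.43), Cd14 (−0.24) and Trem2 (−0.68) had differences below 0. The classical genes Ly6c2 and F13a1 thus had means of 7327 and 10472 in lineage-negative marrow, while the differences of Vcan and Fn1, of the same role, were −4.11 and −2.56. In lineage-negative marrow, 7 stem and progenitor markers summed to 14316 to 18922, against 1290.4 to 2401 in whole marrow.

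Other genes of these pathways were counted from lists of textbook members. Of 16 further monocyte genes, 14 were called higher in AML than in whole marrow (87.5%, against 27.3% of all genes) and 9 after TMM scaling (56.2%, against 4.95%). Against lineage-negative marrow 13 were called higher (81.2%, against 17.7%). Itgax, which encodes the integrin CD11c, had a log2 difference of 2.75 from whole marrow, the lysosomal protease gene Ctss 2.58, Fcgr1, the high-affinity IgG receptor, 2.52, and S100a4, a calcium-binding protein, 2.51. After TMM scaling these were 2.08, 1.90, 1.85 and 1.83. Csf1r, the receptor for macrophage colony-stimulating factor, was at 2.29, and the monocyte transcription factor genes Irf8 and Klf4 were at 2.33 and 2.31 (1.61, 1.66 and 1.63 after TMM scaling). Itgam (0.33) and Cybb (0.83) were not called.

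Of 17 further macrophage genes, 16 were tested, and 3 were called higher (18.8%, against 27.3% of all genes) and 5 lower (31.2%, against 11.3%) in AML against whole marrow. After TMM scaling the higher calls were lost and 5 genes were called lower (31.2%, against 15.8%). The lower genes were Cd5l (log2 −2.31), a secreted protein of tissue macrophages, Fcna (−1.90), a ficolin of spleen and marrow macrophages, Lyve1 (−1.48), a hyaluronan receptor, Clec1b (−1.10) and Vcam1 (−1.06), an adhesion protein of erythroblastic island macrophages, at −2.97, −2.58, −2.14, −1.77 and −1.74 after TMM scaling. The higher genes were Cd209a (2.24), which is also a dendritic cell marker, Lgals3 (1.64) and Apoe (1.63), at 1.57, 0.96 and 0.95 after TMM scaling. Which cells of the bulk marrow carried the lower or the higher transcripts was not tested. C1qa, C1qb and C1qc, which encode the complement component C1q, had differences of −0.12, 0.27 and −0.16 and were not called, nor were they after TMM scaling (−0.79, −0.41 and −0.84). AML replicate 6 held 1213, 1340 and 890 normalized counts of these, against 114 to 541, 146 to 624 and 152 to 427 in the other AML libraries. Against lineage-negative marrow 14 of the 16 were called higher in AML (87.5%, against 17.7%).

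In haem and iron handling, 4 of 12 further tested genes were called higher than in whole marrow and 2 lower, 33.3% and 16.7% against 27.3% and 11.3% of all genes. After TMM scaling 2 were higher and 3 lower, 16.7% and 25% against 4.95% and 15.8%. Lrp1, which takes up haem bound to haemopexin, was higher (log2 2.98, 2.30 after TMM scaling), as was the ferroxidase gene Cp (2.28 and 1.61). Blvrb, a biliverdin reductase gene abundant in red cells, was lower (−3.13 and −3.81), as was the iron transporter gene Slc11a2 (−1.19 and −1.86). Of 13 further genes of apoptotic cell clearance, 4 were called higher and 2 lower, 30.8% and 15.4% against the same 27.3% and 11.3%. On the deposited scale both shares were thus near those of all genes. After TMM scaling 2 were higher and 3 lower (15.4% and 23.1%, against 4.95% and 15.8% of all genes). The bridging protein genes Mfge8 (2.15, 1.47 after TMM scaling) and Pros1 (1.97 and 1.30) were higher, and Gas6 (−1.29 and −1.96), which encodes the ligand of AXL and MERTK, and the scavenger receptor gene Stab2 (−1.32 and −1.98) were lower.

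Markers of other cells in the marrow were counted beside these. The 11 neutrophil markers summed to 437721 to 1392370 normalized counts in AML and 430629 to 1154750 in whole marrow, which overlap. Of 8 dendritic cell markers, 6 were called higher in AML than in whole marrow (75%, against 27.3% of all genes) and 4 after TMM scaling (50%, against 4.95%), with summed levels of 2112 to 14976 against 1135 to 1914 in whole marrow and 2839 to 3520 in lineage-negative marrow.

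The 250 bases before the start of transcription were searched for 4 motifs on both strands. The search covered the 26 of the 33 genes with an entry in the RefSeq promoter table (GRCm38.p6). It also covered all 32851 promoters in it, which belong to 27025 genes. GAGGAAGT, a core bound by the myeloid factor PU.1 and its relative SPI-C, occurred in Ly6c2 alone among the 26 (2.79% of all genes searched). TTGCNNAA, a C/EBP core, occurred in Adgre4, Cd68 and Lyz1 (10.8% of all genes searched), and TGANTCA, the AP-1 and Maf core, in Cd68 and Trem2 (7.82%). The longer stress response element, which contains that core, occurred in none (0.407%). The stretch before a Ly6c2 start, chr15:75111938-75112187 on the minus strand, is shown with its 2 matches to GAGGAAGT in capitals, because Ly6c2 was the only gene of the 26 with this core; a match describes letters and is not a site.
Ly6c2 upstream: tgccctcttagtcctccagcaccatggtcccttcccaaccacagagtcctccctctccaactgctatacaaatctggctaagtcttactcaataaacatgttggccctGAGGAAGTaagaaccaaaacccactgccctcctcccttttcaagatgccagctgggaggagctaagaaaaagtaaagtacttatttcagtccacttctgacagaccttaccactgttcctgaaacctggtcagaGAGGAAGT

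The upstream stretches of Lyz1 and Lyz2 were alike over 200 of 248 aligned bases (80.6%), although per kilobase of exons Lyz1 had a mean of 76.3 normalized counts in AML against 160796 for Lyz2.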

How the data were processed

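Total RNA from 15 mouse marrow samples was sequenced with TruSeq Stranded Total RNA libraries, per the labels' protocols. The submitters' processing notes name STAR, Partek, DESeq2 and mm10; the counting, its strand setting and versions are not given in the sources used here. The deposited values are a normalized signal: per the table's own name, the authors divided read counts per gene by a DESeq2 poscounts size factor. Starts in the table equal those of GRCm38 (GENCODE M21) for 861 of 38066 shared identifiers, so its coordinates are not used here, and the annotation gave exonic lengths.

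In each library 79.6% to 85.5% of low values were whole multiples of the value of 1 read (tolerance 0.02 of a step), so whole reads were not recovered and no count test was run. Depth was estimated from that step. A floor of 3 reads equals 1.96 to 4.09 normalized counts and covers counting error only: without molecular identifiers, reads need not be separate molecules.

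Genes with at least 10 normalized counts in at least 4 libraries (18941; 19374 removed) entered one limma fit of 3 group means on log2(value + 1), with a mean-variance trend, two-sided (limma 3.58.1, R 4.3.3). P-values were Benjamini-Hochberg adjusted over all genes kept. Fold changes are on the log2(value + 1) scale, which understates the change of low genes. The procedure was tried on simulated data with no scaling offset and no background difference between groups. That trial therefore says nothing about calls under the offset of whole marrow. TMM scaling was written for this purpose in R.

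The genes, lists, contrast and tests were chosen with earlier results of these data known. All 33 genes are accounted for. A marker of the erythroid list is not reported here and was left out of its counts and sums. Values in every library are given for the 7 contrast genes. Genes whose AML libraries overlap neither normal group have every normal library and the lowest, median and highest AML value. Ace, Cd36, Mertk, Marco, Slc40a1 and Thbs1 are given in either form and were chosen after their values were seen. Of the other lists the text names called genes with the largest differences, at most 4 per list and comparison, and genes with a role in the text.

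Other settings tried were TMM and quantile scaling, pseudocounts of 0.1 and 5, no filter beyond a value above 0, a filter at a mean of 50, fits of 2 groups alone, robust and array-weight variance models, replicate number as a block, leaving out each library, subtraction of the receptor-gene background, voom on estimated reads, summed paralogs and other gene sets for the contrast.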

Additional observations from a re-analysis of the deposited data

Results flagged for a closer look

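Among 102 groups of 4 or 7 values examined (the 33 genes and the contrast, in 3 groups of libraries), 17 held a library at one end whose gap to its neighbour was large for the range of the group. The critical values used are set so that chance gives such a gap in about 1 in 20 groups of independent, normally distributed values. These values are neither, since the genes share libraries, so the rate for them is not known. AML replicate 3 held 8 of the 17, whole marrow replicate 1 held 3, lineage-negative replicate 4 held 2, and AML replicates 1, 2 and 6 and lineage-negative replicate 1 held 1 each.

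AML replicate 3 was the highest AML library for Adgre4 (2775, next 819), Mrc1 (4045, next 1533), Ace (4939.9, next 1405), Treml4 (1165, next 247), Timd4 (87.0, next 34.0), Cd36 (1804, next 210.3) and Spic (88.2, next 39.5), and the lowest for Emb (6083, next 11196). Without it the AML means were 417 normalized counts for Adgre4, 1106 for Mrc1, 696 for Ace, 162 for Treml4, 18.6 for Timd4, 134.5 for Cd36 and 34.7 for Spic. The same library had the highest sums of erythroid, B cell and dendritic cell markers in AML, and the part of these cells was not tested.

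Lyz2 was highest in AML replicate 1 (334206, next 222295), Ly86 in AML replicate 2 (5199.6, next 3522) and Mertk in AML replicate 6 (245.6, next 38.0). Whole marrow replicate 1 was the lowest of its group for Cd163 (100.5, next 202), Hmox1 (469.4, next 1044) and the contrast (6.36). It also differed as a library. Its normalized counts totalled 1.02e+07, against 1.93e+07, 1.80e+07 and 1.79e+07 in whole marrow replicates 2 to 4. Its receptor-gene mean was 12.6, against 8.30, 8.28 and 6.69. The part of these differences in its gene values, and in calls lost without it, was not tested. Lineage-negative replicate 4 was the highest of its group for Hmox1 (147.5, next 59.0) and Marco (2.61, the others at 0, and under the floor of 3 reads). Cd14 was highest in lineage-negative replicate 1 (207.9, next 80.9).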

How the results depend on the processing

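Genes called higher in AML than in whole marrow numbered 18, against 7 with TMM scaling, 8 with quantile scaling and 7 with voom; genes called lower numbered 3, against 5 with array weights, 5 without AML replicate 6 and 5 with voom. Leaving out each library gave 14 to 19 higher and 2 to 5 lower there, 27 to 28 higher and 0 to 0 lower against lineage-negative marrow, and 22 to 24 lower and 0 to 0 higher between the normal groups. The contrast ranged from 1.61 to 2.28, 1.05 to 1.72 and 0.28 to 0.78 for AML minus whole, AML minus lineage-negative and lineage-negative minus whole marrow. AML minus lineage-negative was −0.28 without Vcan. Lineage-negative minus whole marrow was 0.56, but 1.16 and −0.0063 with pseudocounts of 0.1 and 5, −0.46 with quantile scaling, 0.0078 with the background subtracted, −0.38 without F13a1, 1.94 without Vcan, 1.24 without Cd163 and 0.060 without Timd4, so its direction is not settled.

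With TMM, quantile scaling and voom the AML minus whole marrow log2 difference turned to −0.048, −0.15 and −0.068 for Adgre4, −0.11, −0.18 and −0.15 for Treml4 and −0.071, −0.17 and −0.046 for Cd163. That of Timd4 turned to −0.54 with TMM, −0.62 with voom, −0.14 with array weights, and to between −0.24 and 0.37 over single libraries left out (below 0 without AML replicates 3, 5 or 7 or whole marrow replicate 1), and that of Axl ran from −0.50 to 0.0080, above 0 without whole marrow replicate 2. For lineage-negative minus whole marrow, F13a1 turned to −0.17, −0.015 and −0.17, Ly86 to −0.33, −0.35 and −0.32 and Cd163 to −0.55, −0.57 and −0.55 in the same order, Emb to −0.063 with TMM and −0.063 with voom, and Cd163 to −0.16 with array weights and from −0.11 (without whole marrow replicate 1) to 0.25 over single libraries left out. None of these was called, and the cause was not tested.

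Replicate numbers did not pair the libraries: deviations of same-numbered libraries correlated at −0.29 to 0.17. The replicate block gave 17 higher and 2 lower for AML against whole marrow, 28 and 0 against lineage-negative marrow, and 0 and 24 between the normal groups, and turned Timd4 to −0.24.

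Of 2514 values for single genes, 2400 kept direction and call, 64 lost the call, 19 gained it and 31 changed sign. Depth limits Vsig4, Marco and, in lineage-negative marrow, Timd4, Lyz1 and Mertk, whose values are a few reads. It also limits Ace in lineage-negative marrow, where 2 of 4 libraries were at or under the floor.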

Other observations

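The ratio of fibronectin to coagulation factor XIII transcripts, Fn1 over F13a1, was 1.89, 1.74, 2.08, 2.19, 1.43, 1.12 and 2.03 in AML replicates 1 to 7. It was 1.35, 1.06, 0.885 and 1.37 in whole marrow and 0.381, 0.0408, 0.093 and 0.227 in lineage-negative marrow. The lineage-negative libraries, which kept F13a1 at 8202 to 12279 normalized counts, thus lay below every other library, and AML replicate 6 lay within the whole marrow range. The ratio was chosen after the values were seen and was not tested.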
